A study of Mus musculus with 14 samples.

Results

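The ADAM and ADAMTS proteases described here were 10 genes of the 43472 listed in the deposited tables, found by their gene symbols in both tables. They were 7 secreted enzymes of the ADAMTS family (Adamts1, Adamts2, Adamts4, Adamts5, Adamts9, Adamts12 and Adamts15) and 3 membrane-anchored enzymes of the ADAM family (Adam8, Adam12 and Adam19). They were measured in scratch-wounded mouse fibroblasts that were left untreated or given autologous micrograft (AMG). At 5 h, Adamts1, Adamts5 and Adamts12 had lower values and Adam8 a higher value in the AMG-treated library of each same-numbered pair of replicates 2, 3 and 4. With smaller log2 fold changes, Adamts4 (-0.49) and Adam12 (-0.11) were also lower and Adam19 (0.35) higher in each of these pairs. The share of all genes with the same sign in every pair was not counted. In the replicate 1 pair Adamts5 (log2 ratio -0.86) and Adam8 (1.90) went the same way, Adamts1 was at -0.07 (95% counting interval -0.18 to 0.05) and Adamts12 was higher (1.12). Adamts4 (0.43), Adam12 (1.73) and Adam19 (2.08) were higher there too. With all libraries of replicates 2 to 4, limma called no member unless the replicate number was taken as a block. With that block it called 6 of the 9 members tested, against 37.2% of all genes. DESeq2 without the block called Adamts1 and Adamts5, against 11.0% of all genes. Adamts15 was at or near 0.

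All cells were primary fibroblasts grown after collagenase IV digestion from 0.5 cm of tail tip, taken from C57BL/6 mice of unstated age, and were kept in DMEM with 10% fetal bovine serum. AMG was made by disrupting mouse skin biopsies in saline, filtering the suspension and depleting it of cells, so that a soluble extract was left, and this extract was given at a dilution of 1:10 in growth medium. RNA sequencing covered 14 libraries: untreated and AMG-treated cells at 1, 5, 12 and 24 h in replicate 1, and at 5 h in replicates 2, 3 and 4. The sample titles give the hours without a starting point, and the paper describes 5 h as the length of the treatment. The labels did not say whether replicates came from separate animals or cultures, so the p-values measured the spread between these libraries.

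ADAM and ADAMTS enzymes are zinc metalloproteinases made as inactive precursors, and in many of them furin-like convertases remove the prodomain. ADAMs sit in the plasma membrane and release the outer parts of growth factors, cytokines and adhesion molecules, while ADAMTS enzymes are secreted, bind the extracellular matrix through thrombospondin repeats and cut proteoglycans, procollagens and other matrix proteins. In skin and tendon fibroblasts they are known for turning over versican and aggrecan, for trimming procollagen and for shedding ligands of the epidermal growth factor receptor. TIMP3 is a tissue inhibitor of several of these enzymes, though not of all.

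The replicate 1 libraries held 13818438 to 27410213 reads and those of replicates 2 to 4 held 12545537 to 34696529. The authors scaled the 2 tables separately, so levels were compared only within a table, and all levels are normalised read counts. In a count of 0, 3 reads were taken as the limit of detection, which was 1.62 to 4.18 normalised counts in replicates 2 to 4 and covers counting error only. Fibroblast markers were present in every library (10 of 10), and of 8 keratinocyte markers Krt5, Krt14, Krt1 and Dsg3 were at 0 in all 6 libraries of replicates 2 to 4. The summed level of the 8 was 156 to 310 in untreated and 90.2 to 149 in AMG-treated libraries there, mostly Dsp and Krt10, and the part of this difference in the members' values was not tested. Same-numbered libraries deviated together from their group means (r = 0.651, 0.765 and 0.697 for replicates 2, 3 and 4, across genes), and replicate 3 stood apart in both groups, with Thy1 at 14712 and 14412 against 1068 to 1723 elsewhere. The fit that takes the replicate number as a block is therefore given beside the fit without it. In bulk RNA, fewer cells of a type and less RNA per cell cannot be told apart.

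The promoter sequences of 4 members are shown because these are the members with an entry whose levels differed in the same direction in all 3 pairs of replicates 2 to 4 and passed the test with the replicate block, and because the study asked about AP-1, a transcription factor that binds DNA directly. The 250 bases upstream of the transcription start, 5′ to 3′ on the strand of the gene, were taken from RefSeq on GRCm38.p6, which held entries for 6 of the 10 members (Adamts1, Adamts2, Adamts9, Adamts12, Adam8 and Adam19). Capitals mark matches, on either strand, to 3 motifs: TGANTCA (AP-1), TGACGTCA (the cyclic AMP response element) and TATAAA (the core promoter box). These were held by 6.75%, 1.55% and 12.4% of 32851 promoter windows of the same length. The windows lie at chr7:139992563-139992812 (Adam8, minus strand), chr16:85803114-85803363 (Adamts1, minus strand), chr15:11064523-11064772 (Adamts12, plus strand) and chr11:46055734-46055983 (Adam19, the second of 3 listed starts, plus strand).
Adam8: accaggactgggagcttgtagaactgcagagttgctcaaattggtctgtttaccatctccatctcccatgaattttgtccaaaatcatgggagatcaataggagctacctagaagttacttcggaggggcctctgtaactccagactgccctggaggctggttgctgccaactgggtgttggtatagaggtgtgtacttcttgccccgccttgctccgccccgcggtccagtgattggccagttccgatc
Adamts1: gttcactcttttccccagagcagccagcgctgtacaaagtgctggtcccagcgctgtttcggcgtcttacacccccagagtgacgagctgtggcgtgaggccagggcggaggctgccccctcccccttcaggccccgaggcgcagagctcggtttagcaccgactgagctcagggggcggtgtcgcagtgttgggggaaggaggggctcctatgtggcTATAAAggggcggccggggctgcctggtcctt
Adamts12: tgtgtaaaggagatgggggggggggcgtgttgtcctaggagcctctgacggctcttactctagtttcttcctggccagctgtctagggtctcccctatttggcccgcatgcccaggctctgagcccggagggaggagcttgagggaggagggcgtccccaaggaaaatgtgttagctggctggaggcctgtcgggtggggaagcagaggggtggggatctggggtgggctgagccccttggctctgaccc
Adam19: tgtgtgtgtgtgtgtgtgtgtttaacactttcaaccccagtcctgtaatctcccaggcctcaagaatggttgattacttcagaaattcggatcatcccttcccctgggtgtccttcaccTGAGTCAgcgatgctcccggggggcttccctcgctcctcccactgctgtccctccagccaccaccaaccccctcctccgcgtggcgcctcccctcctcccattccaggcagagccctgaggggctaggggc
The Adamts1 window held a TATAAA that starts 32 bases upstream of the transcription start, and the second Adam19 window held a TGAGTCA, a match to the AP-1 motif, that starts 131 bases upstream. The letters of the 3 motifs were not found in the Adam8, Adamts12, Adamts2 and Adamts9 windows or in the other 2 windows of Adam19. The rule above did not choose among the 3 Adam19 windows, and only the window with a match is shown. The shares of all promoters are per window, so a gene with 3 windows has more chances of a match. A match is a description of the letters and not a binding site.

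Of the 10 members, 9 reached a mean of 10 normalised counts at 5 h and were tested among 13096 genes, in 3 AMG-treated against 3 untreated libraries. By limma with Benjamini-Hochberg adjustment and no block, 0 of 9 members passed an adjusted p of 0.05, where 1.24% of all genes tested did. Unadjusted p was under 0.05 for 3 of them (Adamts1, Adamts5 and Adamts12), against 23.1% of all genes. With the replicate number as a block, 6 of 9 members passed, against 37.2% of all genes. The 4 lower members were Adamts1, Adamts4, Adamts5 and Adamts12, against 19.3% of all genes lower, and the 2 higher members were Adam8 and Adam19, against 17.9% of all genes higher. The treated and untreated values did not overlap for 2 of 9 members, Adamts1 and Adamts5, against 28.7% of all genes. edgeR without the block called 0 members, against 1.03% of all genes, and with it 5, against 37.0%. DESeq2 without the block called 2 (Adamts1 and Adamts5), against 11.0%. The median log2 fold change was -0.19 over the 9 members and -0.02 over all genes tested.

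**Figure D1:**
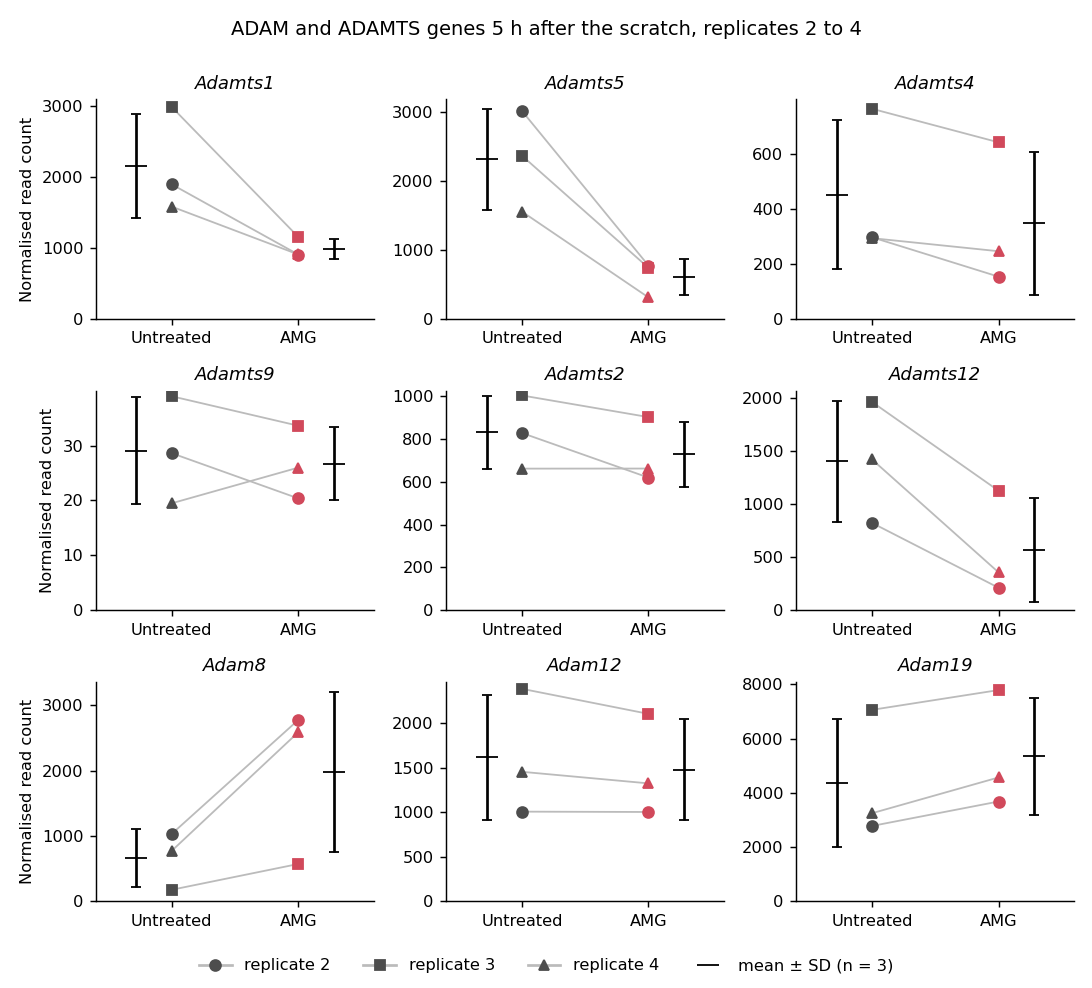
Normalised read counts (linear axes from 0) of the 9 members tested at 5 h, with untreated libraries in grey and AMG-treated libraries in red. Grey lines join libraries of the same replicate number (circle 2, square 3, triangle 4) and black bars give mean ± SD (n = 3). All 3 lines fall for Adamts1, Adamts4, Adamts5, Adamts12 and, by less than 0.2 on the log2 scale, Adam12, and rise for Adam8 and Adam19, while replicate 3 lies highest in both groups for 7 members and lowest for Adam8.

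Adamts5, an aggrecanase that cuts aggrecan and versican, had the most negative log2 fold change of the 9 members tested. Its untreated values were 3015, 2366 and 1554 in replicates 2, 3 and 4, and its AMG-treated values were 771, 738 and 308. Every treated library lay below every untreated library. The mean was 2312 ± 732 in untreated and 606 ± 258 in AMG-treated cells (SD, n = 3), a log2 fold change of -1.99 (SE 0.40), or 3.98-fold lower. The limma adjusted p was 0.0710 without the block and 1.35e-05 with it. The DESeq2 adjusted p was 8.24e-05. With replicate 1 added, edgeR with the replicate number as a block gave a log2 fold change of -1.70 over 4 pairs and an adjusted p of 0.0210.

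Adamts1, a proteoglycanase induced in inflamed tissue that also cuts versican, lies next to Adamts5 on chromosome 16. Adamts1 spans chr16:85793827-85803113 and Adamts5 chr16:85856173-85901828 (mm10, GENCODE M21), both on the minus strand, and the 53.1 kb between them hold 1 annotated gene, the non-coding 4930556C24Rik. Untreated Adamts1 values were 1895, 2987 and 1581, and treated values were 905, 1153 and 906. The treated values lay close together and below all untreated values. The mean went from 2154 ± 738 to 988 ± 143 (SD, n = 3), a log2 fold change of -1.08 (SE 0.25) with a limma adjusted p of 0.0865 without the block and 0.000287 with it. Over 4 pairs, edgeR with the block gave -0.82 with an adjusted p of 0.108.

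Adamts4, the other classical aggrecanase, was the least abundant of these 3. Its values were 296, 763 and 293 in untreated cells and 153, 641 and 245 in AMG-treated cells. The groups overlapped, with replicate 3 high in both, and each treated library was below the untreated library of the same number. The log2 fold change was -0.49 (SE 0.59), with a limma adjusted p of 0.653 without the block and 0.0435 with it. The call with the block was lost without the replicate 2 pair (adjusted p = 0.338), with edgeR in place of limma (0.0502) and after a correction for exon length (0.0579). Over 4 pairs, edgeR with the block gave -0.24 with an adjusted p of 0.632. Leaving out 1 library moved the unblocked log2 fold change between -1.06 and -0.03.

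Adamts9 and Adamts15, both able to cut versican, were the least abundant members. Adamts9 had untreated values of 28.6, 39.0 and 19.5 and treated values of 20.4, 33.6 and 26.0, with a log2 fold change of -0.09 (SE 0.41) and a limma adjusted p of 0.914 (0.850 with the block). Its groups overlapped and the pairs did not share a direction. Adamts9 exons share 1381 bases with A730049H05Rik and 424 with Gm15737 on the opposite strand, and the strand setting of the counting was not stated, so its low count is uncertain. Adamts15 had 4 reads in untreated replicate 3 (5.57 normalised counts) and 0 in the other 5 libraries, which allows up to 3.82 normalised counts in any of them, and was left out of the test.

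Adamts2, the N-propeptidase that trims procollagens I and III, stayed within the spread of the replicates. Its values were 828, 1004 and 662 in untreated and 620, 903 and 662 in AMG-treated cells. Replicate 4 had the same value in both groups to 3 digits. The log2 fold change was -0.19 (SE 0.21), with a limma adjusted p of 0.621, and of 0.219 with the block. It turned to 0.03 after the length correction.

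Adamts12, which is known to degrade cartilage oligomeric matrix protein (COMP), came next in size of log2 fold change among the lower members. Its values were 821, 1961 and 1419 in untreated cells and 210, 1124 and 355 in AMG-treated cells. Treated replicate 3 was above untreated replicate 2, so the groups overlapped, and within each pair the treated library was lower. The mean went from 1400 ± 570 to 563 ± 491 (SD, n = 3), a log2 fold change of -1.59 (SE 0.62). The limma adjusted p was 0.192 without the block and 0.000773 with it. Without AMG-treated replicate 3, the unblocked fit called 3 members, against 16.8% of all genes, namely Adamts1 (adjusted p = 0.0331), Adamts5 (0.0258) and Adamts12 (log2 fold change -2.27, 0.0202). Over 4 pairs, edgeR with the block gave -0.97 with an adjusted p of 0.362, and the replicate 1 ratio had the opposite sign (1.12).

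Adam8, a sheddase best known from leukocytes and also made by other activated cells, rose in every pair. Its values were 1034, 178 and 775 in untreated cells and 2779, 573 and 2591 in AMG-treated cells. Treated replicate 3 was below both other untreated values, so the groups overlapped. The log2 ratios were 1.43, 1.68 and 1.74 in replicates 2, 3 and 4, with counting intervals (95%) of 1.32 to 1.54, 1.41 to 1.95 and 1.64 to 1.84. The mean went from 662 ± 439 to 1981 ± 1223 (SD, n = 3), a log2 fold change of 1.61 (SE 0.83), or 3.06-fold. The limma adjusted p was 0.286 without the block and 1.58e-05 with it (SE 0.11 in that fit). Leaving out 1 library moved the unblocked log2 fold change between 0.84 (without untreated replicate 3) and 2.36 (without AMG-treated replicate 3). With replicate 1 added, whose log2 ratio was 1.90, edgeR with the block gave 1.70 over 4 pairs and an adjusted p of 0.00370. Adam8 shares 46 exon bases with Gm16201 on the opposite strand.

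Leukocyte markers are given beside Adam8. The summed level of the 8 leukocyte markers found was 166 to 1375 in the untreated and 212 to 1244 in the AMG-treated libraries at 5 h. By pair it went from 273 to 220 in replicate 2, from 166 to 212 in replicate 3 and from 1375 to 1244 in replicate 4. Lyz2 was the highest of these markers in every library, and the replicate 4 pair had the highest sums in both groups. In replicate 1 at 5 h the marker sum went from 1946 to 539 while Adam8 went from 1105 to 4129. The part of leukocyte RNA in the Adam8 level was not tested.

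Adam19 (meltrin beta), which sheds neuregulins, had the highest mean level per length of the members in the untreated 5 h libraries of replicates 2 to 4. Its range there overlapped that of Adamts1. Adam19 values were 2782, 7064 and 3252 in untreated and 3683, 7793 and 4571 in AMG-treated cells. The groups overlapped, with replicate 3 high in both, and each treated library was above its pair. The log2 fold change was 0.35 (SE 0.41), with a limma adjusted p of 0.644 without the block and 0.0207 with it. That call was lost without the replicate 2 pair (adjusted p = 0.153) and without the replicate 4 pair (0.208). Over 4 pairs, edgeR with the block gave 0.77 with an adjusted p of 0.253. Leaving out 1 library moved the unblocked log2 fold change between 0.04 (without AMG-treated replicate 3) and 0.76 (without untreated replicate 3). Adam19 exons share 587 and 480 bases with the antisense genes Gm16033 and Gm16034.

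Adam12 (meltrin alpha), which sheds heparin-binding EGF-like growth factor, differed by less than the spread of the replicates. Its values were 1008, 2387 and 1455 in untreated and 1004, 2105 and 1325 in AMG-treated cells. The log2 fold change was -0.11 (SE 0.38), with a limma adjusted p of 0.891, and of 0.390 with the block, and it turned to 0.14 after the length correction.

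The pairs showed how much of the spread was shared by libraries of the same number. In both groups, 7 of the 9 members tested (Adamts1, Adamts2, Adamts4, Adamts9, Adamts12, Adam12 and Adam19) were highest in replicate 3, against 28.6% of all genes tested, and 1, Adam8, was lowest there, against 27.8%. Over all 4 pairs at 5 h, replicate 1 included, Adam8 and Adam19 were higher in 4 of 4 and Adamts1 and Adamts5 lower in 4 of 4. Adamts4, Adamts12 and Adam12 were lower in replicates 2 to 4 and higher in replicate 1, with replicate 1 log2 ratios of 0.43, 1.12 and 1.73. The share of all genes with the same sign in every pair was not counted, with or without replicate 1. The agreement of signs among members therefore has no background.

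**Figure D2:**
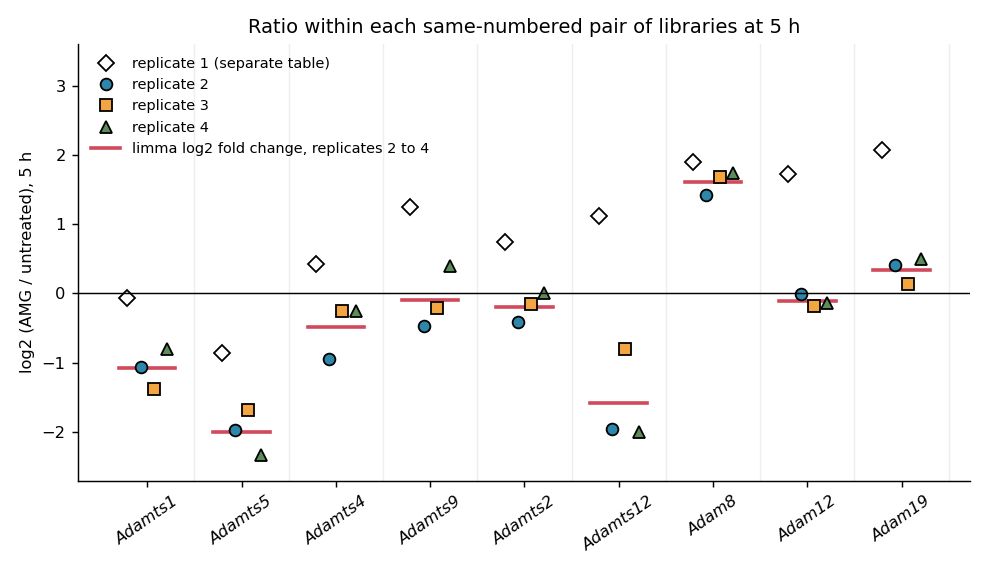
Log2 ratio of AMG-treated to untreated at 5 h in each same-numbered pair of libraries (open diamond replicate 1, circle 2, square 3, triangle 4), with the limma log2 fold change over replicates 2 to 4 as a red line. Adam8 lies between 1.43 and 1.90 in all 4 pairs, whereas replicate 1 lies above the other 3 pairs for all 9 members plotted.

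Per kilobase of exon, untreated levels at 5 h (mean of replicates 2 to 4, normalised counts per kb) were ordered Adam19 at 614, Adamts1 at 406, Adamts5 at 214, Adam12 at 153, Adam8 at 143, Adamts12 at 128, Adamts4 at 93.7, Adamts2 at 89.0, Adamts9 at 1.93 and Adamts15 at 0.18. Neighbours in this order overlapped in their ranges over the 3 libraries, except Adamts1 and Adamts5, Adamts2 and Adamts9, and Adamts9 and Adamts15.

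The time course of replicate 1 asked when these differences appeared. It had 1 library per group and time, so it had no replicate check and no test. In untreated cells all 9 members with a mean of 10 were at their lowest level at 5 h, where 39.5% of all 13498 such genes were. In AMG-treated cells 1 of 9, Adamts5, was lowest at 5 h (20.9% of all genes) and 4 of 9, Adamts2, Adam8, Adam12 and Adam19, were highest then (21.3%). The untreated 5 h library differed from the others in composition too, with 7.00% of its reads in 87 ribosomal protein genes. The AMG-treated 1 h library had 5.10%, and the other 12 libraries of the series had 2.27% to 3.47%.

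**Figure D3:**
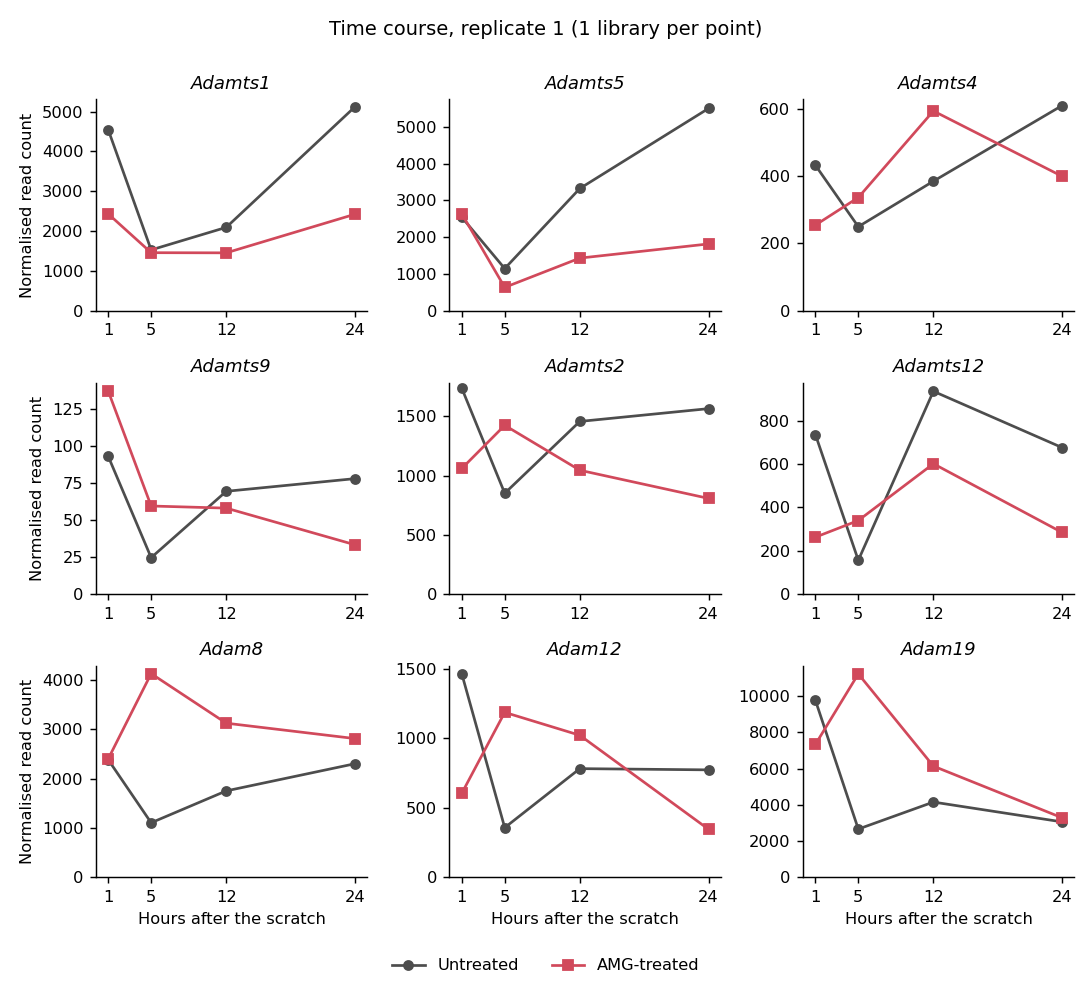
Normalised read counts of 9 members in replicate 1 at 1, 5, 12 and 24 h (1 library per point, linear axes from 0), untreated in grey and AMG-treated in red. The axis counts hours from the scratch, a starting point that the sample titles do not give. All 9 untreated lines have their lowest point at 5 h, and the treated line of Adamts5 ends at 1816 against 5508 at 24 h.

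Adamts5 was at 2544, 1146, 3327 and 5508 in untreated cells at 1, 5, 12 and 24 h, and at 2634, 633, 1430 and 1816 in AMG-treated cells. It was lower in treated cells at 5, 12 and 24 h and close to untreated at 1 h, with log2 ratios of 0.05, -0.86, -1.22 and -1.60. Adamts1 was at 4545, 1526, 2093 and 5124 in untreated and at 2431, 1456, 1452 and 2423 in treated cells. Its log2 ratios were -0.90, -0.07, -0.53 and -1.08, so the replicate 1 pair differed least at 5 h, the time at which replicates 2 to 4 were collected.

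Adam8 was at 2383, 1105, 1751 and 2302 in untreated and at 2401, 4129, 3124 and 2812 in AMG-treated cells. Its log2 ratios in time order were 0.01, 1.90, 0.83 and 0.29, highest at the 5 h pair. Adam19 went through 9764, 2659, 4149 and 3055 in untreated and 7329, 11218, 6132 and 3281 in treated cells. Its log2 ratio was -0.41 at 1 h and 2.08 at 5 h, and then 0.56 and 0.10. Adam12 had log2 ratios of -1.27, 1.73, 0.39 and -1.16, from 1464, 357, 782 and 773 in untreated and 605, 1188, 1023 and 346 in treated cells.

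Adamts12 was at 737, 156, 937 and 677 in untreated and at 263, 340, 602 and 284 in AMG-treated cells. It was lower in treated cells at 1, 12 and 24 h (log2 ratios -1.49, -0.64 and -1.25) and higher at 5 h (1.12). Adamts2 had the same signs, with log2 ratios of -0.71, 0.74, -0.48 and -0.95, and Adamts4 had ratios of -0.76, 0.43, 0.62 and -0.61. Adamts9 had ratios of 0.56, 1.24, -0.25 and -1.21 on levels of 24.6 to 137. Adamts15 was at 0 reads in 3 libraries (both at 1 h and untreated at 5 h) and reached 13 reads (9.96 normalised counts) in untreated and 9 reads (8.10) in AMG-treated cells at 24 h, its highest values in either group.

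Counted by a 2-fold difference in replicate 1, 0 of 9 members were higher and 2 lower at 1 h, against 11.3% and 10.7% of all genes. After a correction for exon length, described next, the 1 h counts were 1 higher (Adamts9) and 1 lower (Adamts12), against 7.63% and 8.87%. At 5 h 5 were higher and 0 lower, against 13.3% and 12.6%, and after the correction 3 were higher (Adam8, Adam12 and Adam19) and 1 lower (Adamts5), against 11.2% and 8.91%. At 12 h 0 were higher and 1 was lower, against 5.93% and 6.9%, and at 24 h 0 were higher and 5 lower, against 6.05% and 8.05%. The median log2 ratio of the members was -0.71, 1.12, -0.25 and -1.08 at the 4 times, while that of all genes stayed between -0.06 and 0.02. The 5 members past 2-fold at 24 h were Adamts1, Adamts5, Adamts9, Adamts12 and Adam12. The marker lists were also lower in the AMG-treated 24 h library, by their summed levels. The smooth muscle and pericyte markers went from 70732 to 16540, the fibroblast markers from 289730 to 170050, the chondrocyte markers from 2199 to 596, the leukocyte markers from 1154 to 405 and the keratinocyte markers from 747 to 257. The part of these shifts in the members' ratios was not tested.

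Gene length moved with these ratios. The members' exons span 4.64 to 15.0 kb with a median of 9.85 kb, against 4.45 kb for all genes tested. Across genes, the ratio of AMG-treated to untreated correlated with exon length in every pair, with Spearman's rho of -0.43, 0.41, 0.16 and -0.20 in replicate 1 at 1, 5, 12 and 24 h and of -0.32, -0.20 and -0.38 in replicates 2, 3 and 4. These correlations run over 12781 genes in replicate 1 and 12399 in replicates 2 to 4, which are not independent. The correction removed, from each library, the trend with length of its deviations from the gene means. After it, the members' median log2 ratio in replicate 1 was -0.35, 0.61, -0.41 and -1.02. At 5 h Adam8 kept 1.83, Adam19 1.78 and Adam12 1.24, Adamts5 went from -0.86 to -1.35, and Adamts12 from 1.12 to 0.62. In replicates 2 to 4 the corrected log2 fold change was -1.74 for Adamts5, -0.99 for Adamts1, -1.33 for Adamts12, 1.66 for Adam8 and 0.49 for Adam19, and with the block these 5 members passed, against 34.3% of all genes (limma adjusted p = 5.51e-06, 0.000386, 0.000641, 5.86e-06 and 0.00552). The part of the length trend in the members' values beyond this correction was not tested.

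**Figure D4:**
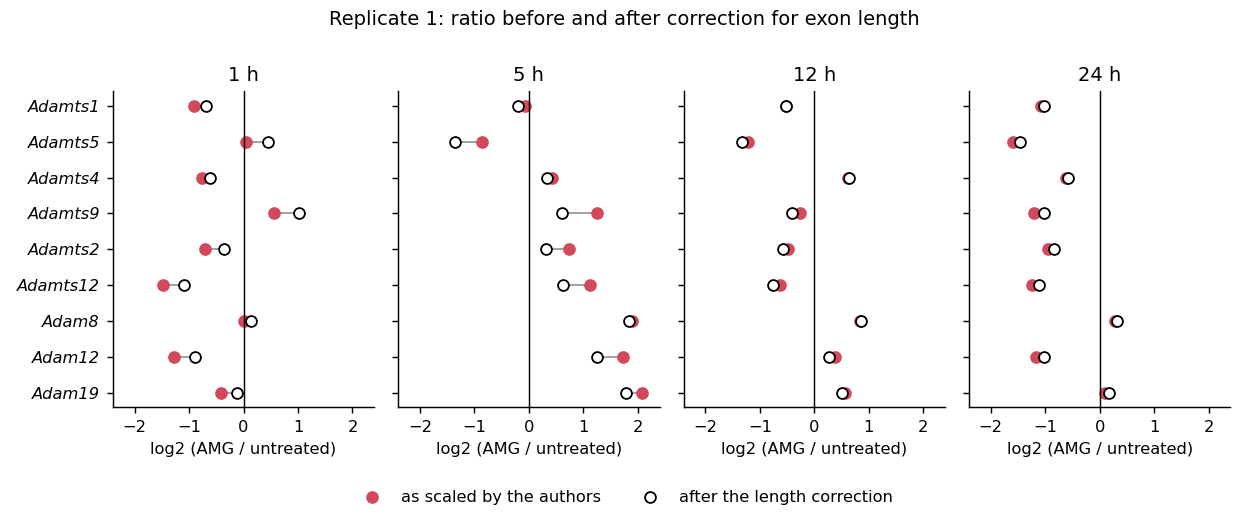
Log2 ratio of AMG-treated to untreated in replicate 1 at 1, 5, 12 and 24 h for 9 members, as scaled by the authors (red) and after correction of each library for its trend with exon length (open). The correction moves the points least at 12 and 24 h, and at 5 h Adam8 stays at 1.83 while Adamts9 goes from 1.24 to 0.61.

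The enzymes act with related genes, which were counted in 8 lists of 83 genes in all, 67 of them tested at 5 h. Without the block 2 of the 67 passed, both higher in AMG-treated cells. They were Rhbdf2 (iRhom2, which escorts ADAM17 to the cell surface), at 217 ± 40.7 in untreated and 888 ± 56.5 in AMG-treated cells (SD, n = 3; log2 fold change 2.04, SE 0.18, limma adjusted p = 0.0167), and Ereg (epiregulin, an ADAM17 substrate), at 2566 ± 682 and 22935 ± 7864 (3.13, SE 0.33, 0.0190). With the block 34 of 67 passed, 15 higher and 19 lower, against 37.2% of all genes, 17.9% higher and 19.3% lower. These shares stand beside the counts of each list. Because the lists were chosen with earlier results of these data known, a count above its share cannot be read as a result about the list. In the replicate 1 pair at 5 h, 17 of the 34 had the same sign, as did 4 of the 6 members and 48.3% of all genes that passed with the block. For each list, the log2 fold change and the limma adjusted p with the block are given in this order.

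Of the other ADAM genes 2 of 9 passed, both lower, namely Adam10 (log2 fold change -0.56, adjusted p = 0.00634) and Adam9 (-0.52, 0.00536), which are broad sheddases. The median of that list was -0.43. In replicate 1 at 5 h both had the other sign (0.11 and 0.30). Of the other ADAMTS genes 3 of 4 passed. Adamts14, a second procollagen N-propeptidase (0.89, 0.00282), and Adamts7, which like Adamts12 cuts COMP (0.91, 0.00490), were higher, and Adamts6 was lower (-0.62, 0.0331) but at 0.61 in replicate 1 at 5 h. Adamts7 and Adamts14 had positive log2 ratios in replicate 1 at 5, 12 and 24 h (1.75, 1.80 and 1.86, and 2.08, 2.09 and 2.07) and negative ones at 1 h (-1.01 and -0.81). At 12 and 24 h these ratios had the opposite sign to those of Adamts12 and Adamts2, their closest members by substrate. Of the ADAMTS-like genes, matrix proteins without a protease domain, 3 of 5 passed and all were lower, namely Adamtsl3 (-0.85, 0.000919), Adamtsl1 (-0.80, 0.00109) and Thsd4 (-0.69, 0.00493). In replicate 1 at 5 h all 5 genes of the list were positive, with log2 ratios of 0.72, 0.48 and 1.48 for these 3.

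Of the inhibitors and clearance genes 2 of 5 passed. Timp1, which inhibits matrix metalloproteinases and ADAM10 but few ADAMTS enzymes, was higher (1.22, 0.000146), and Reck, a membrane-anchored inhibitor, was lower (-0.69, 0.00220). Both had the other sign in replicate 1 at 5 h, at -0.41 and 0.44. Timp3 was at 49154 ± 23182 in untreated and 42256 ± 14360 in treated cells (SD, n = 3; adjusted p = 0.420) and did not pass. In replicate 1 its log2 ratio was 0.03, 0.53, -2.30 and -3.36 at 1, 5, 12 and 24 h. Of the convertases 1 of 4 passed, Pcsk6 (-0.52, 0.00862, and 0.75 in replicate 1 at 5 h), and Furin did not (-0.10, 0.453). Of the ADAM partners 2 of 7 passed, Rhbdf2 (higher, 1.15e-05) and Tspan5, a tetraspanin that binds ADAM10 (-0.54, 0.0149).

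Of the ADAMTS substrates and cofactors 8 of 15 passed and all were lower. They were the link protein gene Hapln1 (-1.04, 0.000251), the collagen genes Col1a1 (-0.63, 0.0109), Col1a2 (-0.57, 0.0103), Col3a1 (-0.54, 0.00971) and Col5a1 (-0.51, 0.0144), the nidogen gene Nid2 (-0.60, 0.00327), and the fibulin genes Fbln2 (-0.49, 0.0125) and Fbln1 (-0.33, 0.0461). In replicate 1 at 5 h 7 of these 8 had the other sign, Hapln1 (-1.24) being the exception, and 11 of 13 genes of the list were positive with a median log2 ratio of 0.38. Versican (Vcan), the main proteoglycan target in fibroblasts, went from 5766 ± 896 to 4763 ± 1877 (SD, n = 3; log2 fold change -0.34, adjusted p = 0.0601) and did not pass. Chondrocyte markers differed between replicates, with Col2a1 at 21940 and 12336 in the replicate 2 pair and at 200 to 1102 in the others, and their part in the values of the cartilage genes was not tested.

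Of the ADAM substrates 13 of 18 passed, 11 higher and 2 lower, with a list median of 0.74. The higher ones were the epidermal growth factor receptor ligands Areg (4.53, 0.00189), Ereg (3.13, 1.83e-07), Hbegf (1.11, 0.000120) and Btc (1.02, 0.00470), the neuregulin Nrg1 (1.10, 0.00307), the cytokine gene Tnf (3.65, 0.00691), the membrane-bound chemokine gene Cx3cl1 (1.92, 0.000708), the syndecans Sdc4 (1.13, 0.000457) and Sdc1 (0.36, 0.0255), the Notch ligand Jag1 (0.90, 0.0149) and the hyaluronan receptor Cd44 (0.59, 0.00371). Cdh2, which encodes N-cadherin (-0.67, 0.00147), and Kitl, the stem cell factor gene (-1.15, 0.0406), were lower. In replicate 1 at 5 h 12 of these 13 had the same sign, the exception being Sdc4 at -0.01. Areg and Tnf were near the limit of detection in untreated cells, at means of 2.11 and 1.26 against 70.4 and 32.0 in treated cells, so their fold changes depend on the pseudocount.

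**Figure D5:**
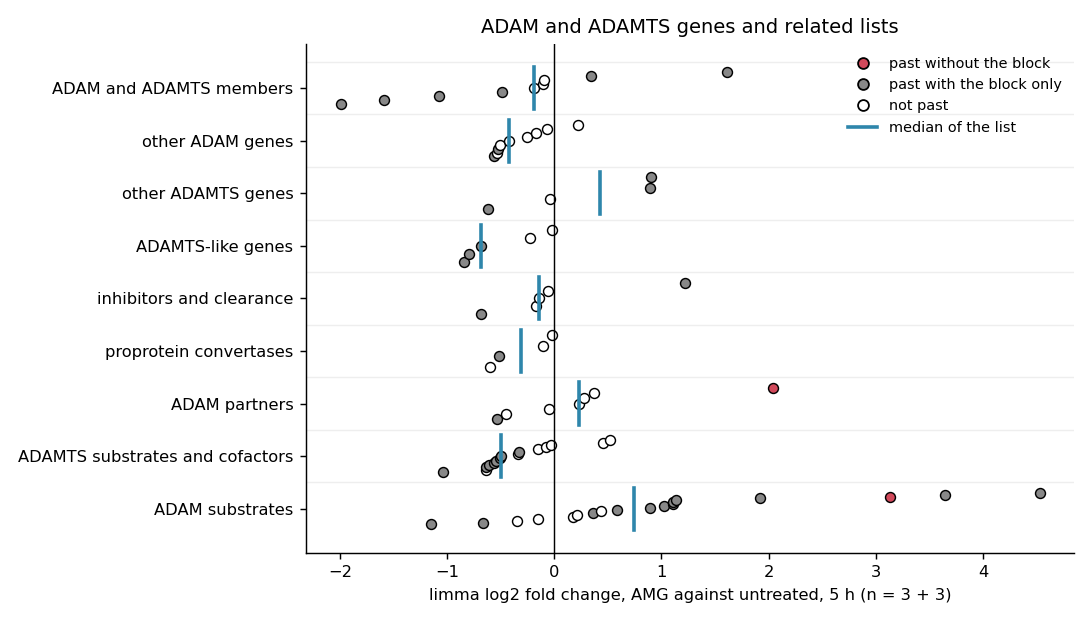
Limma log2 fold change of AMG-treated against untreated cells at 5 h (n = 3 + 3) for every tested gene of 9 lists, 1 point per gene, red where it passed without the block, grey where it passed only with the block and open where it did not pass. Blue bars give list medians, which are -0.19 for the ADAM and ADAMTS members, -0.49 for ADAMTS substrates and cofactors and 0.74 for ADAM substrates.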

How the data were processed

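The authors prepared stranded poly(A) libraries, aligned single-end reads to mm10 with TopHat2 2.0.13, counted them per gene with HTSeq 0.5.3p3 and divided the counts by DESeq size factors. The deposited values are this normalised signal. The annotation release and strand setting were not given in the sources used here. Division by the smallest step gave whole reads for 100% of values (tolerance 0.1), and count tests ran on these reads. Groups and replicate numbers came from the sample titles. Log2(value + 1) of genes with a mean of at least 10 was tested at 5 h with limma 3.58.1 (trend, two-sided, Benjamini-Hochberg over 13096 genes, threshold 0.05), without a replicate block, since no pairing was stated. The numbers pair the libraries by the correlation check alone. Same-numbered pairs gave 0.651 to 0.765 and all others -0.588 to 0.12. Deviations from a group mean cancel within the group, so high same-numbered values push the others down, and the others are not separate support. The check used the same libraries as the blocked fits, whose values are printed where they change a call. Alternatives used edgeR 4.0.16, DESeq2 1.42.0, other pseudocounts and filters, rescaling, left-out libraries and a lowess correction for exon length (GENCODE M21, 95.3% of genes). Limma and edgeR without the block were tested on simulated counts with the same dispersion for every gene and no replicate effect. The fits with the block were not tested on simulated data. Members and lists were chosen with earlier results of these data known. All members were described, and of the related lists every gene past the test with or without the block was named, while Timp3, Furin and Vcan were added after their values were seen.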

Additional observations from a re-analysis of the deposited data

Results flagged for a closer look

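Adam12 at 5 h had a log2 ratio of 1.73 in replicate 1, far from the other 3 pairs, which lay between -0.18 and -0.01. Its gap to the nearest pair passed Dixon's critical value for 4 values, in a search over 9 members that by chance passes about 1 in 20 times for each. The untreated 5 h library of replicate 1 had 7.00% of its reads in ribosomal protein genes, and the ratio was 1.24 after the correction for exon length. Adam19 had a log2 ratio of -0.41 at 1 h in replicate 1 and was higher in AMG-treated cells in all 4 pairs at 5 h. The difference between the times was not tested. After the length correction the 1 h ratio was -0.13.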

How the results depend on the processing

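The number of members past the test at 5 h was 0 of 9 by limma without the replicate block. It was 6 with the block, 5 with edgeR and the block, 5 with the length correction and the block, 2 with DESeq2, 2 with edgeR on 4 replicates and the block, and 0 to 3 when a library was left out. With the block and without pair 2, 3 or 4 (fits chosen after seeing the data) it was 4, 6 and 5. Of all genes, 162 passed without the block, 4872 with it, 80 without the trend, 4852 with edgeR and the block, 1440 with DESeq2, 495 with edgeR on 4 replicates and the block, 4282 with length correction and block, and 1 to 2200 with a library left out (2200 without AMG-treated replicate 3). Without pair 2, 3 or 4 and with the block 1419, 6800 and 2674 passed. Of the 67 related genes, 2 passed without the block, 34 with it, 33 with edgeR and the block, 15 with DESeq2, 4 and 8 with edgeR on 4 replicates (table as batch, then block), 34 with length correction and block, 0 to 15 with a library left out and, with the block, 19, 46 and 26 without pair 2, 3 or 4. At a fold of 1.5 in place of 2, 5, 7, 4 and 7 of 9 members passed in replicate 1 at 1, 5, 12 and 24 h. The share of all genes past that fold was not counted, so these counts have no background. The log2 fold change of Adamts2 turned to 0.0516 (table as batch) and 0.0518 (replicate block) on 4 replicates and 0.0263 with the length correction. That of Adamts9 turned to 0.25 and 0.26 on 4 replicates and 0.21 with length correction, with -0.34 to 0.14 when a library was left out and 0.0949 with the block and without pair 2. That of Adam12 turned to 0.32, 0.33 and 0.14 in the same settings, with -0.40 to 0.22. Adamts1, Adamts4, Adamts5, Adamts12, Adam8 and Adam19 had the same sign under all 23 alternatives, with ranges of -1.28 to -0.82, -1.06 to -0.03, -2.25 to -1.56, -2.27 to -0.76, 0.84 to 2.36 and 0.04 to 0.77. Over all of replicates 2 to 4, the block, the trend and the filters on mean level cannot change a limma log2 fold change. Those settings could therefore not alter a sign. The replicate 1 pair alone had the opposite sign for Adamts4 (log2 ratio 0.43) and Adamts12 (1.12). The causes were not tested. At the depth of these libraries no difference in Adamts15 was detectable.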
